A study of Komagataella pastoris with 6 samples.

Results

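Flocculin-like lectin genes were taken as the genes whose product description names Flo1p, a flocculin, flocculation or a lectin-like protein. 2 of the 5030 genes measured met this rule, PAS_chr1-4_0584 and PAS_chr3_0013. Both carry the same description, a lectin-like protein similar to Flo1p that is thought to act in flocculation. The pair was proposed for study because PAS_chr1-4_0584 was known to be low in the engineered strain. Its strain difference is therefore given as a description, with no test. PAS_chr3_0013 entered by its description, and its strain difference was tested.

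The organism is *Komagataella pastoris* (*Pichia pastoris*), a yeast that can live on methanol. Messenger RNA was sequenced in 3 libraries of the control strain HTX-33, whose genotype is labelled WT, and 3 libraries of HTX33_ILV3, a derivative with Ilv3 overexpression (the ILV3 strain). The series calls them biological replicates. All cells were grown in basal salt medium with 0.5% methanol, labelled methanol induction, and were harvested in exponential phase. The sources used here do not say how many clones of the engineered strain were grown.

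Flocculins are cell wall glycoproteins known best from *Saccharomyces cerevisiae*. Those of the Flo1p type bind mannose chains on neighbouring cells through a lectin domain at the outer end of the protein, so that cells clump and settle. They reach the wall through the secretory pathway, are heavily O-mannosylated, and are usually joined to wall glucan through the remnant of a glycosylphosphatidylinositol (GPI) anchor. In *S. cerevisiae* their genes are under tight control by the Tup1p-Cyc8p co-repressor, by cAMP-dependent protein kinase and by the pathway of filamentous growth.

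Levels are in TPM, a length-scaled share of each library's transcripts. The deposited values are named FPKM but sum to 1000000 in every library, as TPM do; scaling by length is taken from the name and was not checked. The files keep no read depth, and no counting intervals were computed. ILV3 (PAS_chr1-4_0458), the overexpressed gene, lay between 79.8 and 91.9 TPM in the control libraries and between 2564 and 2680 TPM in the ILV3 libraries. This matches the strain labels of all 6 libraries. The transcript with the highest mean level was an alcohol oxidase (PAS_chr4_0821), the enzyme that oxidises methanol. Of 5025 genes tested with limma, 2478 differed between strains at an adjusted p under 0.05, which is 49.3%. Of the genes tested, 27.2% were called lower in the ILV3 strain and 22.1% higher.

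PAS_chr1-4_0584 was the abundant member, and it was far lower in the ILV3 strain. The control libraries held 247, 232 and 271 TPM. The ILV3 libraries held 38.2, 38.1 and 40 TPM. The lowest control library was well above the highest ILV3 library, and the 3 ILV3 libraries lay close together. Strains did not overlap in 57.2% of all tested genes, and in 30.5% the ILV3 strain was the lower one. The mean was 250.1 ± 19.9 TPM in control libraries and 38.8 ± 1.07 TPM in the ILV3 strain (SD, n = 3 each), a 6.45-fold difference of means. On the log2(TPM + 1) scale the difference of the ILV3 strain from the control was -2.66 (SE 0.06), the seventh lowest of the 5025 genes. Only 2.29% of the genes tested were called lower by at least 2-fold. The gene was chosen on that contrast, so nothing is read from these shares.

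PAS_chr3_0013 was weakly expressed in both strains. Its control libraries held 4.03, 2.43 and 3.47 TPM. Its ILV3 libraries held 4.52, 3.06 and 4.27 TPM. The ranges overlapped, and replicate 2 was the lowest library of both strains. The mean was 3.31 ± 0.812 TPM in control libraries and 3.95 ± 0.781 TPM in the ILV3 strain (SD, n = 3 each). The log2 difference was 0.20 (SE 0.19, limma adjusted p = 0.419), with a 95% interval from -0.24 to 0.65. As a ratio of TPM + 1 in the ILV3 strain to TPM + 1 in the control, that interval runs from 0.848 to 1.57. At levels this low the added 1 draws such ratios towards 1, so these are not bounds on the ratio of levels. The log2 ratio of mean levels without the added 1 was 0.26. Within pairs of libraries with the same replicate number the ILV3 library was the higher in 3 of 3, by 0.49, 0.63 and 0.8 TPM. With the replicate number as a block the call did not change (limma adjusted p = 0.366).

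**Figure D1:**
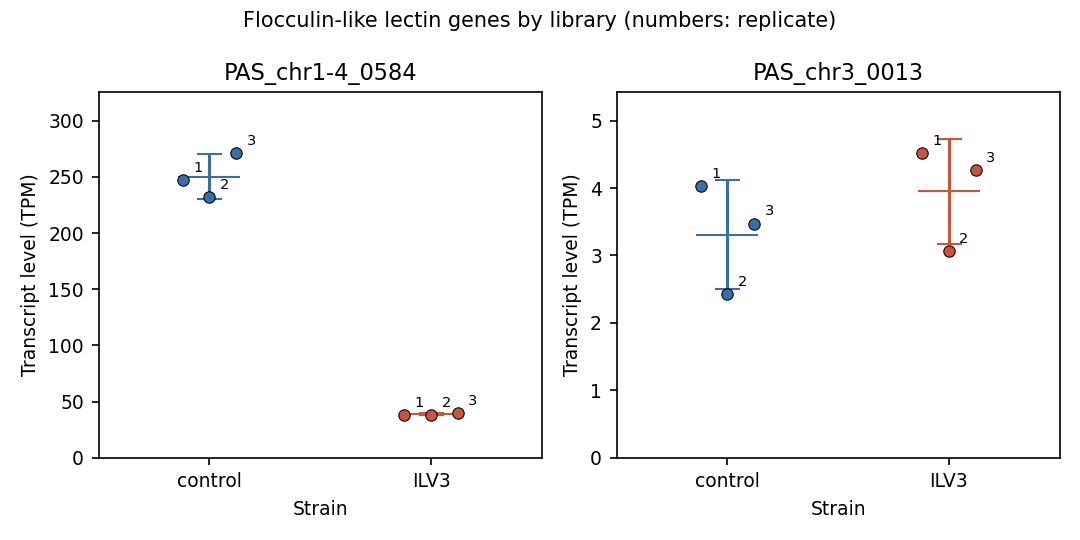
Level in TPM (vertical axes, from 0, on different scales) of PAS_chr1-4_0584 and PAS_chr3_0013 in each library of the control and ILV3 strains, with numbers for the replicate and bars for the mean ± SD (n = 3). For PAS_chr1-4_0584 every control library lies at 232 TPM or more and every ILV3 library at 40 TPM or less. For PAS_chr3_0013 the strains overlap between 3.06 and 4.03 TPM.

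The order of the pair was the same in all 6 libraries, with PAS_chr1-4_0584 above PAS_chr3_0013 and no overlap of their ranges in either strain. Per length, if the values are so scaled, PAS_chr1-4_0584 was 61.4 to 95.3 times as abundant as PAS_chr3_0013 in the control libraries. In the ILV3 libraries it was 8.45 to 12.5 times as abundant. PAS_chr1-4_0584 thus made up 98.4% to 99.0% of the summed lectin transcripts in the control and 89.4% to 92.6% in the ILV3 strain. The summed level was 253 ± 20.4 TPM in control libraries and 42.7 ± 1.55 TPM in the ILV3 strain (SD, n = 3 each). The sources used here do not say how reads that match both genes were assigned. Any such sharing would weigh most on the weak member.

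Among all genes of a library, PAS_chr1-4_0584 moved from the upper part of the range to just below the middle. Its level stood at the 86.5th to 87.9th percentile of the 5030 genes in the control libraries. In the ILV3 libraries it stood at the 41.0th to 44.5th percentile, so it was still a moderately expressed gene. PAS_chr3_0013 stayed among the weakest genes of every library, between the 0.696th and 1.15th percentile.

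The spread between libraries also differed between the members and between strains. For PAS_chr1-4_0584 the SD of log2(TPM + 1) was 0.11 in the control. That was more than in 86.2% of the 856 genes within 2-fold of its level. In the ILV3 strain its SD was 0.038, more than in only 21.5% of 2402 such genes. With 3 libraries a strain, these SDs are themselves imprecise and their difference was not tested. For PAS_chr3_0013 the coefficient of variation was 24.5% in the control and 19.8% in the ILV3 strain, against 7.97% and 2.76% for PAS_chr1-4_0584. The depth of the libraries is unknown, and the part of counting error in this spread was not tested.

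**Figure D2:**
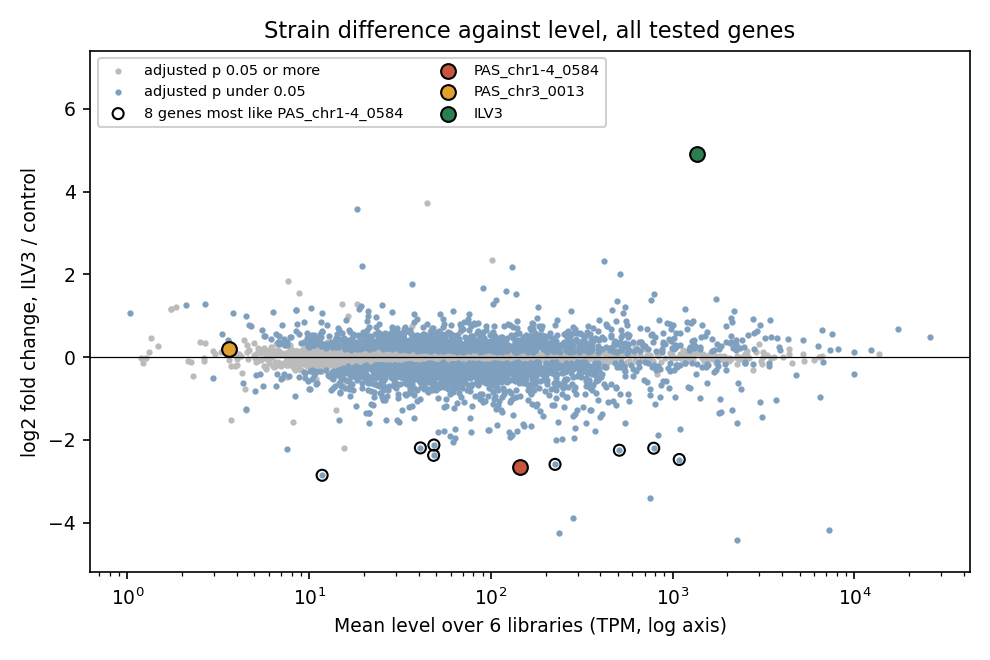
Mean level over the 6 libraries (horizontal log axis, TPM) against the log2 fold change of the ILV3 strain over the control for the 5025 tested genes, coloured by limma adjusted p. PAS_chr1-4_0584 lies at -2.66 in the sparse lower part of the plot, PAS_chr3_0013 lies at 0.20 at the far left, and open rings mark the 8 genes with profiles most like that of PAS_chr1-4_0584.

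Precision differed between the levels of the pair. The mean over the 6 libraries was within 2-fold of that of PAS_chr1-4_0584 in 1314 tested genes, and their median absolute log2 fold change was 0.22. Around PAS_chr3_0013, 110 tested genes had a mean within 2-fold of its own, and their median absolute log2 fold change was 0.21. The median SE was 0.14 among these weak genes and 0.052 among the genes at the level of PAS_chr1-4_0584. A change of a given size was thus harder to resolve for PAS_chr3_0013.

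In the authors' deposited table the log2 fold change of PAS_chr1-4_0584 is -2.67 and the gene is marked down. In the authors' deposited table PAS_chr3_0013 has a log2 fold change of 0.29 and p = 0.331. That table marks it up, although neither its p there nor the limma fit passes 0.05.

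The genes with profiles most like PAS_chr1-4_0584 were found by the root mean square difference of centred log2(TPM + 1) values over the 6 libraries, among the 4772 other genes that averaged 10 TPM or more. With 6 libraries in 2 groups, this measure mostly picks genes with a like strain difference, so their differences are a description. The closest was PAS_chr3_0015, which has no product name. It held 422, 332 and 408 TPM in control libraries and 64.1, 63.4 and 61.9 TPM in the ILV3 strain, a root mean square difference of 0.090. Like PAS_chr1-4_0584, it was lowest in control replicate 2 among the control libraries and varied little within the ILV3 strain. The low value in control replicate 2 is not particular to these genes. Every glucan and chitin enzyme listed below was also lowest there among the control libraries, though PAS_chr3_1068 was highest there. Next came PAS_chr4_0828, described as similar to the minor myo-inositol transporter Itr2p, at 1841 ± 32.7 and 331 ± 20.5 TPM (SD, n = 3 each; difference 0.109).

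The other 6 of the 8 had differences of 0.186 to 0.292. Of these, PAS_chr1-4_0226, PAS_chr1-4_0582, PAS_chr3_0030, PAS_chr2-2_0018 and PAS_chr3_1068 have no product name. In all 8, every control library was above every ILV3 library, as the choice by likeness favours, and as in 30.5% of all genes tested. PAS_chr3_0013 was far from this profile, at a root mean square difference of 1.44. Ranking by Pearson's r instead gave 8 other genes, none shared with these.

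**Figure D3:**
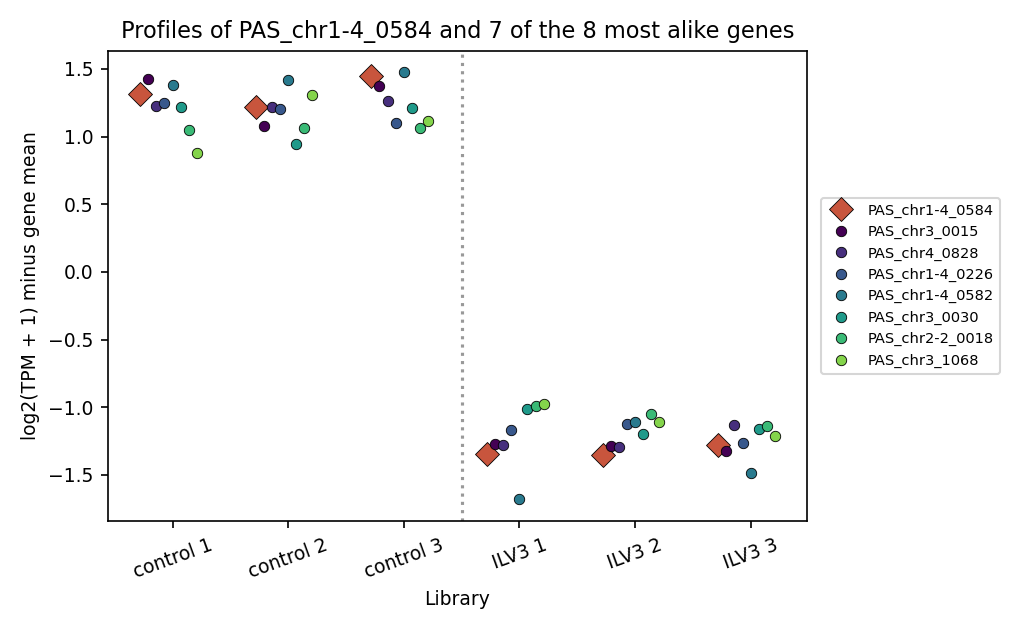
Values of log2(TPM + 1) minus the gene's mean (vertical axis) in each of the 6 libraries (horizontal axis) for PAS_chr1-4_0584 (diamonds) and 7 of the 8 genes most like it (circles). All of them lie above 0 in the control libraries and below 0 in the ILV3 libraries, and PAS_chr3_0015 lies closest to the diamonds.

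Locus tag numbers gave the only hint of position, since 0 of the 5030 identifiers matched the RefSeq gene table of the species. Of the 6 tags numbered within 3 of PAS_chr1-4_0584, 5 were analysed. Among them 2 were called lower and 1 higher, where 49.3% of all genes tested were called. PAS_chr1-4_0582, a gene with no product name, held 20.8, 21.3 and 22.2 TPM in control libraries and 1.6, 2.86 and 1.97 TPM in the ILV3 strain. Its log2 fold change was -2.85 (SE 0.15, limma adjusted p = 7.02e-07), and -1.89 with a pseudocount of 5.

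The other tags had smaller differences, and their contrast with this pair was not tested. PAS_chr1-4_0581, also unnamed, rose from 11.9 ± 1.02 to 18.3 ± 2.54 TPM (log2 change 0.58, limma adjusted p = 0.00237). PAS_chr1-4_0585, described as a ubiquitin-specific protease that interacts with Bre5p, was at 20.9 ± 2.11 and 24 ± 1.07 TPM and did not pass (limma adjusted p = 0.0784). It passed under both other scalings (0.0161 by median ratio, 0.00839 by quantiles) and when control replicate 3 was left out (0.0309), in a range of 0.00839 to 0.205 over its alternatives. PAS_chr1-4_0586, an abundant unnamed gene, fell from 11336 ± 1043 to 8556 ± 1038 TPM (log2 change -0.41, limma adjusted p = 0.00619). PAS_chr1-4_0587 was at 61.9 ± 1.53 and 63.7 ± 4.10 TPM (limma adjusted p = 0.597).

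**Figure D4:**
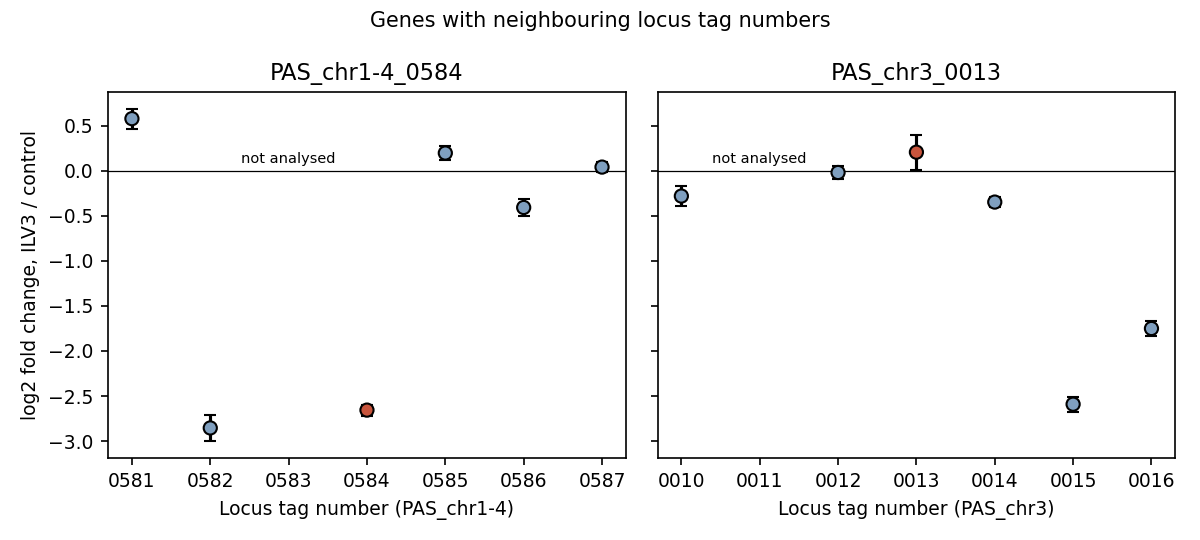
Log2 fold change of the ILV3 strain over the control (vertical axis, bars ± SE) for genes whose locus tag numbers (horizontal axis) lie within 3 of PAS_chr1-4_0584 (left) and PAS_chr3_0013 (right), with the lectin gene in red. On the left PAS_chr1-4_0582 and PAS_chr1-4_0584 lie at -2.85 and -2.66 and the other tags between -0.41 and 0.58. On the right PAS_chr3_0013 lies at 0.20 and PAS_chr3_0015 at -2.59.

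Genes around cell adhesion and the cell wall were described by lists matched to words in the product descriptions. The descriptions do not state that each listed gene acts on flocculins. Of 10 genes described with filamentous, invasive or pseudohyphal growth or with Tup1p or Cyc8p, 3 fell and 2 rose, with a median log2 fold change of -0.045 against -0.020 over all genes tested. These counts are close to the 27.2% called lower and 22.1% called higher over all genes tested. With quantile normalization the list median was 0.0023 and the median of all genes 0.022. A co-repressor described as acting with Tup1p (PAS_chr1-1_0131) fell from 74.9 ± 6.41 to 47.3 ± 2.92 TPM (log2 change -0.65, SE 0.07, limma adjusted p = 9.73e-05). A second gene with that same description (PAS_chr2-1_0762) was at 89.7 and 83.0 TPM on average and did not pass (limma adjusted p = 0.203). The general repressor described as the partner of Cyc8p (PAS_chr3_1001) was at 91.4 and 88.7 TPM (limma adjusted p = 0.617). Whether the co-repressor genes differed in their response was not tested.

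A protein of the mating response, invasive growth and osmotolerance (PAS_chr1-1_0348) fell from 86.8 ± 3.44 to 56.8 ± 3.37 TPM (log2 change -0.60). An ammonium permease involved in pseudohyphal growth (PAS_chr1-4_0394) rose from 68.8 ± 0.532 to 89.6 ± 3.94 TPM (log2 change 0.38). A transcriptional activator of pseudohyphal growth (PAS_chr4_0326) rose from 9.03 ± 0.576 to 11.0 ± 0.500 TPM (limma adjusted p = 0.0402), a call lost with the replicate block (0.105) and in a range of 0.00799 to 0.137. The rises in this list numbered 1 with the block, and also 1 without control replicate 1, control replicate 2, ILV3 replicate 1 or ILV3 replicate 2.

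In cAMP signalling, the route by which yeasts pass on nutrient signals to protein kinase A, changes were small. Of 8 genes 3 fell and 1 rose, and the log2 fold changes ranged from -0.20 to 0.20 (median -0.044, and -0.0010 with quantile normalization). Over all genes tested 27.2% were called lower and 22.1% higher. The catalytic subunits were called in opposite directions. PAS_chr1-4_0357 fell from 188 ± 11.0 to 166 ± 2.79 TPM (limma adjusted p = 0.0207). PAS_chr3_0964 rose from 51.7 ± 2.65 to 59.5 ± 0.762 TPM (limma adjusted p = 0.0124). Adenylate cyclase (PAS_chr4_0356) fell from 50.1 ± 3.33 to 43.5 ± 1.65 TPM (limma adjusted p = 0.0277, and 0.0621 with the block). The regulatory subunit (PAS_chr3_0546) fell from 308 ± 7.77 to 284 ± 7.26 TPM (limma adjusted p = 0.0428, and 0.122 with the block). The 3 lower calls were weak. Their number was 1 with the block and 1 with quantile normalization, and it was 0 without control replicate 1, control replicate 3 or ILV3 replicate 3 and 1 without ILV3 replicate 1. Over the alternatives the adjusted p reached 0.0793 for PAS_chr1-4_0357, 0.103 for adenylate cyclase and 0.485 for the regulatory subunit.

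Mannosyltransferases add the sugars that flocculins carry and bind. Of 22 genes 6 fell and 3 rose, with a median of -0.034 (0.0061 with quantile normalization). The share that fell was near the 27.2% of all genes tested, and 22.1% of all genes rose. An alpha-1,2-mannosyltransferase of O- and N-linked glycosylation (PAS_chr1-3_0138) fell from 49.8 ± 3.75 to 28.5 ± 1.70 TPM (log2 change -0.78, SE 0.07, limma adjusted p = 2.59e-05). Dolichol-phosphate mannosyltransferase (PAS_chr1-1_0459), which makes the mannose donor used in the endoplasmic reticulum, fell from 229 ± 4.23 to 164 ± 9.31 TPM (log2 change -0.48). An alpha-1,2-mannosyltransferase (PAS_chr3_0787) and a putative mannosyltransferase (PAS_chr2-2_0201) had log2 fold changes of -0.45 and -0.35 and also fell. The 3 rises became 1 with the block, 5 with either other scaling, and 1 without control replicate 1, control replicate 2, ILV3 replicate 1 or ILV3 replicate 3.

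Among 7 GPI-anchored and cell wall proteins, the class to which flocculins belong by structure, 3 fell and 2 rose, with 1 rise without ILV3 replicate 2, against 27.2% lower and 22.1% higher over all genes tested. The median was -0.26, and -0.16 with quantile normalization. A putative chitin transglycosidase of the wall (PAS_chr4_0559) fell from 342 ± 30.7 to 174 ± 7.34 TPM (log2 change -0.97, SE 0.07, limma adjusted p = 4.81e-06). A putative mannosidase described as an essential GPI-anchored protein (PAS_chr1-1_0147) fell from 128 ± 4.28 to 85.0 ± 3.19 TPM. Another putative GPI-anchored mannosidase (PAS_chr1-4_0242) was at 198 and 206 TPM on average and did not pass (limma adjusted p = 0.304). A cell wall protein of unknown function (PAS_chr2-2_0271) fell from 154 ± 15.1 to 128 ± 7.68 TPM (limma adjusted p = 0.0176), a call lost by median-ratio scaling (0.0587), by quantile normalization (0.158) and when ILV3 replicate 3 was left out (0.0727). A GPI-anchored yapsin, a protease that processes surface proteins (PAS_chr1-1_0379), rose from 9.09 ± 0.468 to 12.9 ± 0.556 TPM (log2 change 0.47).

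The glucan and chitin enzymes, which make, cut or rejoin the polymers of the wall, were called in 1 direction only. The list includes sporulation enzymes and a glucanase described as intracellular. Of 13 genes 9 fell and 0 rose with limma, against 27.2% of all genes called lower, and the median log2 fold change was -0.37. All 13 had a log2 fold change below 0, also under both other scalings, so 0 were higher at an unadjusted p under 0.05. The major exo-1,3-beta-glucanase of the wall (PAS_chr2-1_0454) held 171, 155 and 171 TPM in control libraries and 64.6, 67.6 and 64.8 TPM in the ILV3 strain. It fell by 1.32 on the log2 scale (SE 0.05, limma adjusted p = 1.46e-07). An endo-beta-1,3-glucanase described as a major wall protein (PAS_chr1-4_0426) fell from 1554 ± 61.5 to 930 ± 41.5 TPM. The beta-1,3-glucanosyltransferases PAS_chr1-3_0226 and PAS_chr1-3_0227, which rejoin glucan chains, fell from 154 ± 18.4 to 82.6 ± 3.31 TPM and from 315 ± 24.1 to 187 ± 7.19 TPM. The largest of these falls was smaller on the log2 scale than the -2.66 of PAS_chr1-4_0584. No description named a sexual agglutinin, so that list stayed empty.

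**Figure D5:**
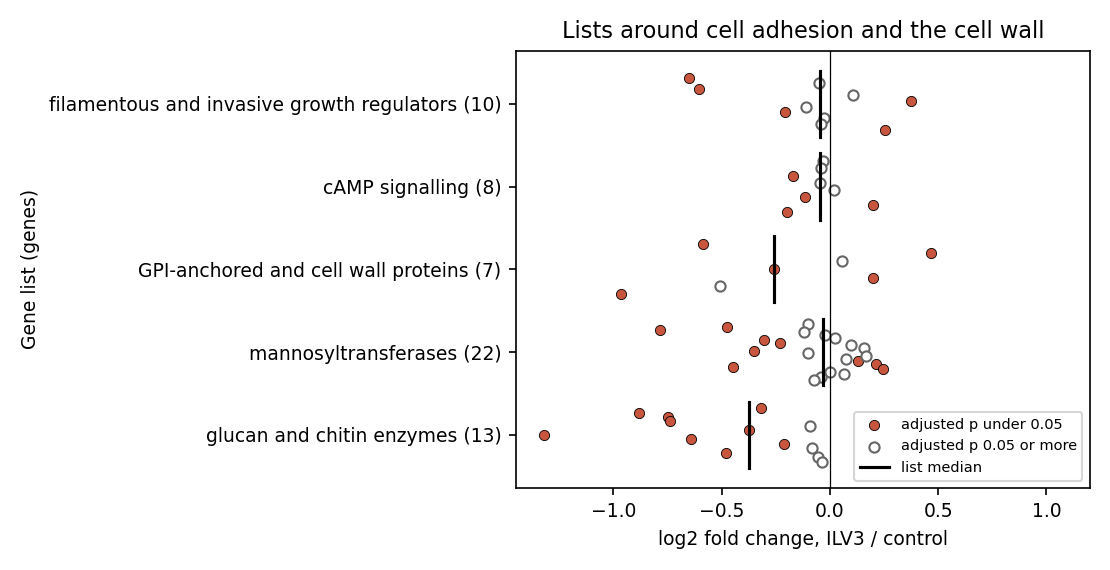
Log2 fold change of the ILV3 strain over the control (horizontal axis) for each gene of 5 lists (vertical axis, number of genes in brackets), filled where the limma adjusted p was under 0.05, with a black line at the list median. The glucan and chitin enzymes all lie below 0, with a median of -0.37, while the other lists hold calls in both directions.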

How the data were processed

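The submitters deposited a table of 5030 genes with values named FPKM, product descriptions, a log2 fold change and a p-value. The values sum to 1000000 per library, so these deposited values were treated as TPM; the sum alone does not show scaling by length. The deposited log2 fold changes and p-values were only quoted; whether the deposited p-value is adjusted is not stated. Per the submitters' processing notes, HISAT2, TopHat2 and DESeq2 were used; the sources used here do not state versions, roles, build or annotation. The 6 files of single libraries held the same values. Depth is unknown.

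Genes averaging 1 TPM or more (5025; 5 removed) were fitted as log2(TPM + 1) in limma (version 3.58.1, under R version 4.3.3) with a mean-variance trend; p-values were two-sided and Benjamini-Hochberg adjusted over all tested genes. The fit was also run on simulated data with independent noise in each library. Such data cannot show the effect of deviations shared between libraries, and nothing is read from that run here. The members, lists and tests were chosen with earlier results of these data known. Named genes were the members, ILV3, tags within 3 of PAS_chr1-4_0584, the 8 genes most like it, and up to 4 called genes per list with the largest changes; others were named after their values were seen, and 1 is not reported here. List members exclude the lectin genes, and no set test was run.

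The design text calls the replicates biological. Whether they were separate cultures is not described further, so p-values only set the strain difference against the spread between these libraries. Same-numbered libraries shared deviations from their strain means (r across genes 0.223, 0.126 and 0.209, each above 0.1), though the labels do not say what a number marks. The main fit had no block. Alternatives were other pseudocounts, filters, scalings and variance settings, the replicate block, each library left out, and another measure of likeness.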

Additional observations from a re-analysis of the deposited data

How the results depend on the processing

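The log2 fold change of PAS_chr1-4_0584 ranged from -2.71 to -2.54; the lowest magnitude, -2.54, came with a pseudocount of 5, and without any 1 library it lay between -2.71 and -2.60. For PAS_chr3_0013 the log2 fold change ranged from 0.049 (without control replicate 2) to 0.34 (without ILV3 replicate 2), with adjusted p of 0.222 to 0.828 over the alternatives that could be run; with a filter at a mean of 10 TPM it was not tested. Counts of called genes ranged from 2096 to 2773. With the replicate block 2211 genes were called. Filamentous growth regulators called higher went from 2 to 1 with a filter at 10 TPM and to 1 with the replicate block, and lay between 1 and 2 without any 1 library. Genes of cAMP signalling called lower went from 3 to 1 with quantile normalization and to 1 with the replicate block, and lay between 0 and 3 with 1 library left out. GPI-anchored and cell wall proteins called higher lay between 1 and 2 with 1 library left out. Mannosyltransferases called higher went from 3 to 5 with median-ratio scaling or quantile normalization and to 1 with the replicate block, and lay between 1 and 2 with 1 library left out. PAS_chr1-4_0587 changed sign to -0.010 without ILV3 replicate 3 (adjusted p = 0.903, range over its alternatives 0.198 to 0.903) and reached at most 0.078 with another library left out. Likeness by Pearson's r shared 0 of the 8 genes. The causes of these shifts were not tested. Unknown depth limits what can be said of PAS_chr3_0013.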

Other observations

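Other descriptions close to the rule were searched after values were seen, for lectin, floc, adhes or mucin, and gave 4 more genes. A mucin-like protein (PAS_FragB_0067) held 159, 160.4 and 173 TPM in the control and 50.8, 52.1 and 53.4 TPM in the ILV3 strain, a 3.15-fold difference of means. Mucin-like proteins of fungi are heavily O-glycosylated surface or secreted proteins. A second gene described as a mucin family member (PAS_chr1-3_0276) was at 61.9 ± 8.07 and 57.3 ± 3.27 TPM (SD, n = 3 each; limma adjusted p = 0.389). A pair of genes described with a role in cellular adhesion and filamentous growth lay at 22.2 and 24.1 TPM on average (PAS_chr1-3_0141, limma adjusted p = 0.230) and at 58.1 and 50.2 TPM (PAS_chr2-1_0773, limma adjusted p = 0.0161). Both genes of that pair also belong to the list of 10 filamentous growth regulators above. PAS_chr2-1_0773 is already counted there among the 3 that fell.

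The tags numbered within 3 of PAS_chr3_0013 were also examined after values were seen. Of the 5 analysed, 3 were called lower and 0 higher, against 27.2% and 22.1% of all tested genes. PAS_chr3_0015 was already known to be low, so nothing is read from the counts given here. Lower by at least 2-fold were 2, against 2.29% of all tested genes. These are the unnamed genes PAS_chr3_0015, the gene most like PAS_chr1-4_0584, and PAS_chr3_0016, which held 164, 129 and 154 TPM in the control and 45.0, 42.2 and 43.1 TPM in the ILV3 strain. No product name is given for 2200 of the 5030 genes, so lectin genes without a description would have been missed by the rule.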
